A study of Homo sapiens with 15 samples.

Results

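The regions here are parts of the nuclear genome where 3′-OH termini clustered in all 3 replicates of K562 nuclei given 10 U of P1. No sample given less of this nuclease had a region called there. They were found by merging, on chromosomes 1 to 22 and X, every region of the 3 deposited 10 U lists that overlapped another by 1 base, and keeping the merged regions that held a region of each list and touched no region of the 9 lists of 0.01, 0.1 and 1 U. Of 56483 merged regions 1411 met this rule, or 2.5%. In all 1637 (2.9%) held a region of each 10 U list, the other 226 of them also touching a list of a lower amount. A further 2658 were in 2 lists and 52188 in 1 list. These were not screened against the lists of lower amounts. K562 is a human chronic myeloid leukemia cell line, and the 15 samples were formaldehyde-crosslinked K562 nuclei, untreated or given 0.01, 0.1, 1 or 10 U of P1, with 3 replicates of each. The study noted breakdown of bulk genomic DNA after the largest amount of enzyme alone. It proposed the 10 U samples as a further negative control, in which single-stranded regions should be degraded or depleted. Its own set of single-stranded regions was defined from 0.01 and 0.1 U, so the regions here are not part of it. Each sample held between 2046116 and 3859475 sites, a site being a genome position and strand with at least 1 3′-OH terminus.

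P1 nuclease cuts single-stranded nucleic acids, with a much lower activity on double-stranded DNA, and leaves 3′-OH ends. Single-stranded DNA arises in nuclei where the helix is opened, for example during transcription and replication, at R-loops and in sequences that fold into other structures, and AT-rich stretches open more readily than GC-rich DNA. In SSiNGLe-P1 the 3′-OH ends are tailed with A residues, copied from an oligo(T) primer and sequenced from the tail inwards. The strand given with each site in the files was the strand of that copy, that is, the complement of the broken strand. All sequences, base runs and positions below are written along this copied strand, so that a run of T before a site is a run of A on the broken strand, beyond the break. To keep out copies primed inside the genome, termini with more than 8 T in the 20 bases before them were removed when the files were made, and no site of any of the 15 samples had more than 8.

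The 2 sequences below show what most of the regions had in common. Each begins 60 bases before the first 10 U site and runs 5′ to 3′ to the far edge of the region (GRCh37). Capitals mark the longest unbroken run of T before the first site, where it held at least 10 bases.
Before RAB32, chr6:146864019-146864170, plus strand: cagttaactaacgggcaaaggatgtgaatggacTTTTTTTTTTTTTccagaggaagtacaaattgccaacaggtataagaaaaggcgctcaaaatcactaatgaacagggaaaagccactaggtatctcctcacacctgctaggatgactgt
Exon of RAP1A, chr1:112240006-112240140, plus strand: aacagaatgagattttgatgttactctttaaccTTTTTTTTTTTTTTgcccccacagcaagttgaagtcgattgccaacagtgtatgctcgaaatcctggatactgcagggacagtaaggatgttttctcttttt
The RAB32 sequence comes from a region within 1 kb of an annotated gene start, and that of RAP1A touches an exon. The run held 13 T in the former and 14 T in the latter, and each was followed by G or C.

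The regions were short. Their median width was 90 bp, with quartiles of 80 and 100 bp and extremes of 10 and 300 bp, and 79.9% were between 70 and 110 bp wide. Merged regions of a single list had a median width of 30 bp, and 38.6% of them were 1 window of the region caller, 10 bp, against 0.0709% of the 1411. Median G+C content was 51.1% (quartiles 41.8% and 56.7%), beside 56.7% in regions of a single list. Over an equal 100 bp around the centre the medians were 51% and 53%. Within the 3 lists, 8.24%, 4.45% and 10.7% of the 10 U regions of replicates 1, 2 and 3 lay in the 1411. Lists of 10 U overlapped each other more than lists of other amounts: between 8.16% and 20.7% of one 10 U list touched another, while the share was between 1.35% and 3.38% over the lower amounts. Since width and recurrence follow from how the regions were called and chosen, these values carry no test.

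Termini at 10 U fell almost entirely on 1 strand in these regions, although the region caller had not used strand. All sites of the 3 replicates lay on 1 strand in 1071 of the 1411 regions (75.9%), and at least 90% of them in 1346 (95.4%). The copied strand was the plus strand in 51.1% of the regions. Among regions of a single list with 5 or more sites, 40.3% had at least 90% of sites on 1 strand. The contrast remained at like numbers of sites: with 5 to 9 sites in replicate 1, all sites were on 1 strand in 91.4% of 891 regions and in 40.2% of 2104 regions of that list only. In replicates 2 and 3 the shares were 89.3% against 38.5% and 91.8% against 46.8%.

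Exact positions were shared between replicates. Between 18.4% and 22.8% of the 10 U sites inside the regions had a site at exactly that position and strand in another 10 U replicate, compared with 0.909% to 1.21% of sites elsewhere. The regions were chosen for many sites in a short span in every replicate, which by itself raises this share, and no value at matched density was computed. The first site along the strand differed between replicates by a median of 7 bases and the last by 22 bases, so that the near edge was placed more closely than the far edge. Removal of T-rich termini bars sites just after a run of T in every replicate alike. Its part in the closer near edge was not tested.

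A run of 10 or more T stood within 60 bases before the first site in 1172 of the 1411 regions (83.1%). The share was lower in regions of fewer lists, which were not screened against the lists of lower amounts. It was 54.8% in regions of 2 lists, 6.05% in regions of 1 list and 14.9% in those of 1 list with 5 or more sites. It was 38.5% in the 226 regions of all 3 lists that also touched a list of a lower amount. A run of 10 or more A in the same place preceded 1 region, and a run of T followed the last site in 24. In the 239 regions without a run of this length the longest stretch of T had a median of 6 bases and reached at least 8 in 65 of them, and T made up 56.9% of the bases 21 to 30 before the first site. Over all 1411 regions T made up 82.2% of these bases, and 27.6% before regions of a single list. The filter on T-rich termini looked at 20 bases, and the part that copies primed inside the genome had in these regions was not tested.

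**Figure D1:**
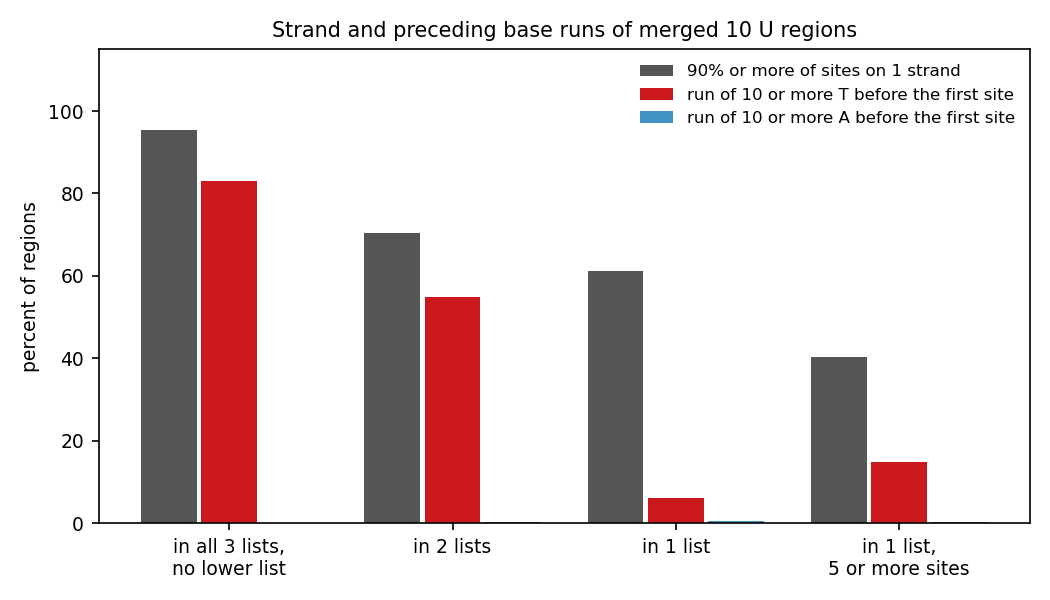
Bars give the percentage of merged 10 U regions, by the number of 10 U lists that hold them, with at least 90% of sites on 1 strand (grey), with a run of 10 or more T (red) or of 10 or more A (blue) in the 60 bases before the first site. The red bar drops from 83.1% in the 1411 regions to 6.05% in regions of a single list, and the blue bars stay under 1%. Only the 1411 regions were screened against the lists of lower amounts.

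The runs of T were of a narrow range of lengths. Among 995755 runs of at least 10 T on either strand of chromosomes 1 to 22 and X, 0.118% were followed by one of the regions. The share rose from 0.0241% of runs of 10 T to 0.552% of the 85169 runs of 13 T, and fell again to 0.281% at 14 T, 0.119% at 16 T and 0.0111% at 20 T. Runs of 13 T made up 470 of the 1172, and the quartiles of run length before the regions were 13 and 14 bases against 11 and 17 in the genome. Only 4 of 60825 runs of 25 or more T were followed by a region. The deposited sites came from reads that began with 11 to 13 T, and whether this bears on the lengths seen was not tested.

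**Figure D2:**
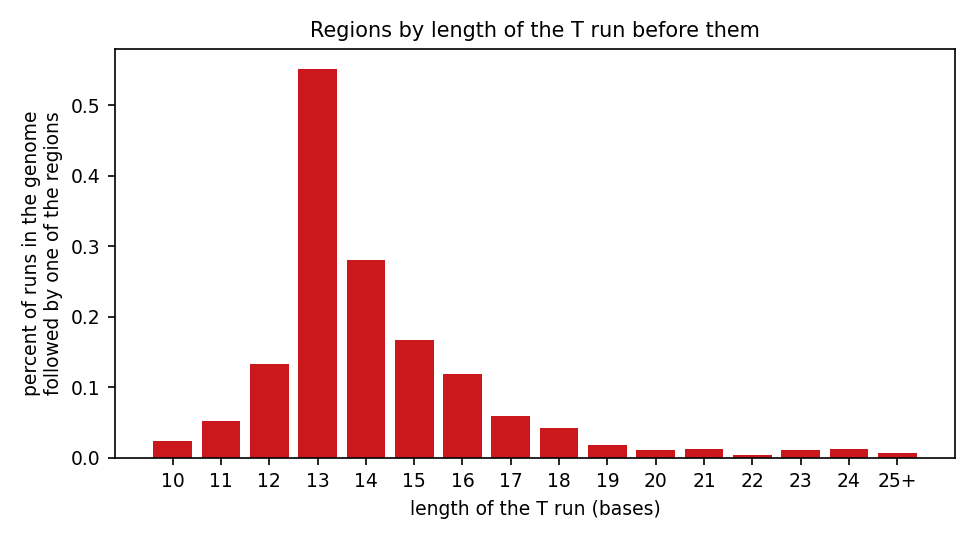
Bars give, for each length of T run in the genome (bases, 25 or more together), the percentage of runs followed by one of the 1411 regions. The bar for 13 T stands highest at 0.552%.

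The bases beside the runs were far from those of other runs. The base before the run was C in 84.8% of the 1172 runs and in 52.0% of all runs. The base after it was G in 69.5% and C in 30.2%, leaving 0.341% with A, while A followed 27.1% of all runs. At the second base after the run G and C made up 53.0% and 43.9%, against 11.7% and 11.2% over all runs, where A was the most common base at 54.1%. Among runs of exactly 13 T the base before was C in 92.1% of the 470 with a region and in 52.5% of all. For runs of 10 to 14 T, which preceded 925 of the regions, the 100 bases after the run had a median G+C content of 53% with a region and 45% over all such runs. For runs of 15 to 19 T the medians were 53.5% and 55%.

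The sites lay in a narrow window after the run. The first site followed the run's end after a gap of 18 bases at the median, with quartiles of 16 and 20 and a minimum of 13. The removal of T-rich termini leaves a blank just after any such run. Runs were sought only within 60 bases before the first site, and the regions were called as short clusters. The far limit of the window thus follows in part from the choice. Of 27243 sites on the run's strand within 150 bases of its end, 96.2% lay 11 to 100 bases after it and 24.5% lay 71 to 80 bases after it. At least 1 site of a replicate fell 71 to 80 bases after the run in 1120 of the 1172 regions (95.6%). Distances of 74 to 78 bases and of 20 bases were the 6 most frequent, with 1019 sites at 76 bases. At 121 to 130 bases the run's strand held 39 sites and the opposite strand 40. The untreated nuclei held few sites there, but they too were most frequent at 71 to 80 bases: of their sums over 3 replicates, 249 sites lay 71 to 80 bases after the run and between 64 and 152 in each of the other steps of 10 bases from 11 to 100, with 6 to 17 on the opposite strand.

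**Figure D3:**
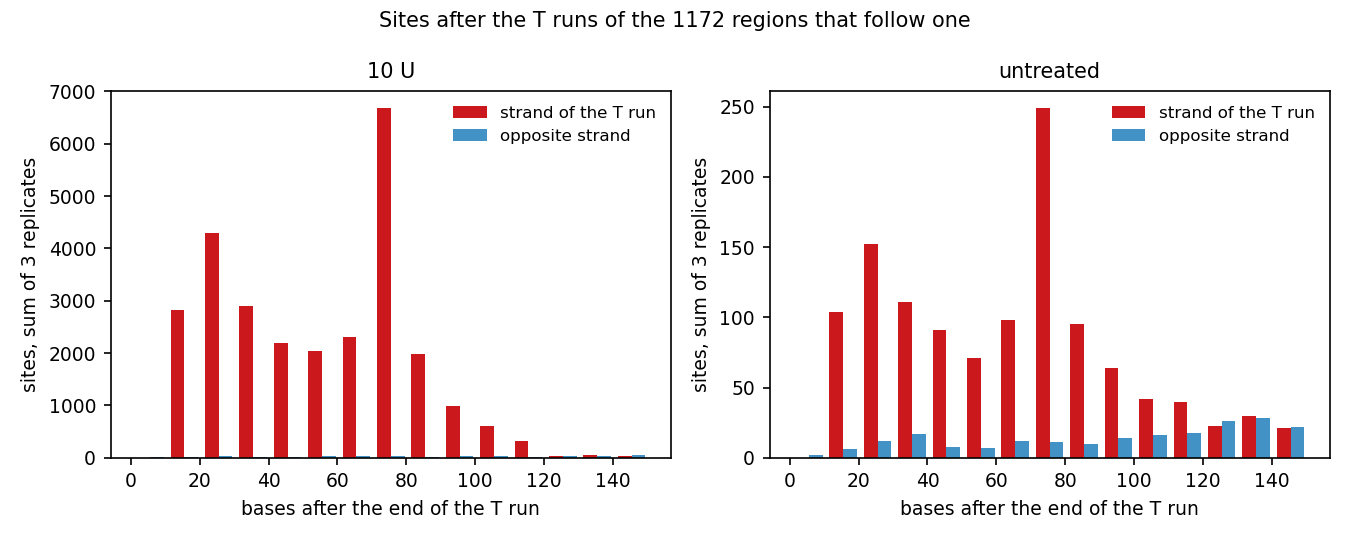
Bars give the number of sites, summed over 3 replicates, in steps of 10 bases after the end of the T run in the 1172 regions that follow one, on the run's strand (red) and the opposite strand (blue), at 10 U and in untreated nuclei (axes of different height). Both panels peak at 71 to 80 bases, with 6684 and 249 sites, and the first step is empty on the run's strand.

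The regions had 7.18, 8.76 and 7.47 sites each on average in the 3 replicates at 10 U, and between 0.302 and 0.539 in every other sample. At 10 U they held 3911, 3774 and 4304 sites per 1000000 sites of the sample. The untreated samples had 146, 198 and 262, those of 0.01 U 227, 244 and 213, those of 0.1 U 248, 247 and 270, and those of 1 U 270, 350 and 355. All 10 U samples stood above all others, which the choice of regions favours, and the ranges of neighbouring lower amounts overlapped apart from that between 0.01 U and 0.1 U. No untreated site of any replicate lay in 560 regions (39.7%), and 30 held 5 or more. As the samples chose the regions, these levels are a description.

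To measure the same thing in samples that had no part in the choice, regions were chosen again from 2 replicates at a time, by their 10 U lists and the 6 lower lists, and counted in the replicate left out. This gave 2369, 1913 and 2234 regions when replicates 1, 2 and 3 were left out. Each replicate also helped to choose the regions counted in the others, so the 3 left-out values are not independent of each other. The tests on left-out counts here and below do not allow for this. Counted as sites per 1000000 sites of the sample and 1000 regions, the left-out 10 U samples held 1875, 2059 and 2153 sites. The untreated ones held 122, 158 and 192, and the 1 U ones 204, 259 and 263. Of the regions, 94.8%, 97.0% and 95.0% had a site in the left-out 10 U sample, against 25.1% to 30.3% in the untreated one. The density was 13.1 times that of untreated nuclei at 10 U (11.2 to 15.3 over the replicates, higher in 3 of 3), and the 5 amounts differed by more than the replicates did (exact permutation test within replicate numbers, two-sided, p = 0.000764, Benjamini-Hochberg adjusted p = 0.00204 over 8 tests). Without replicate 2 the factor was 13.1 and p = 0.0583 in the exact permutation test.

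**Figure D4:**
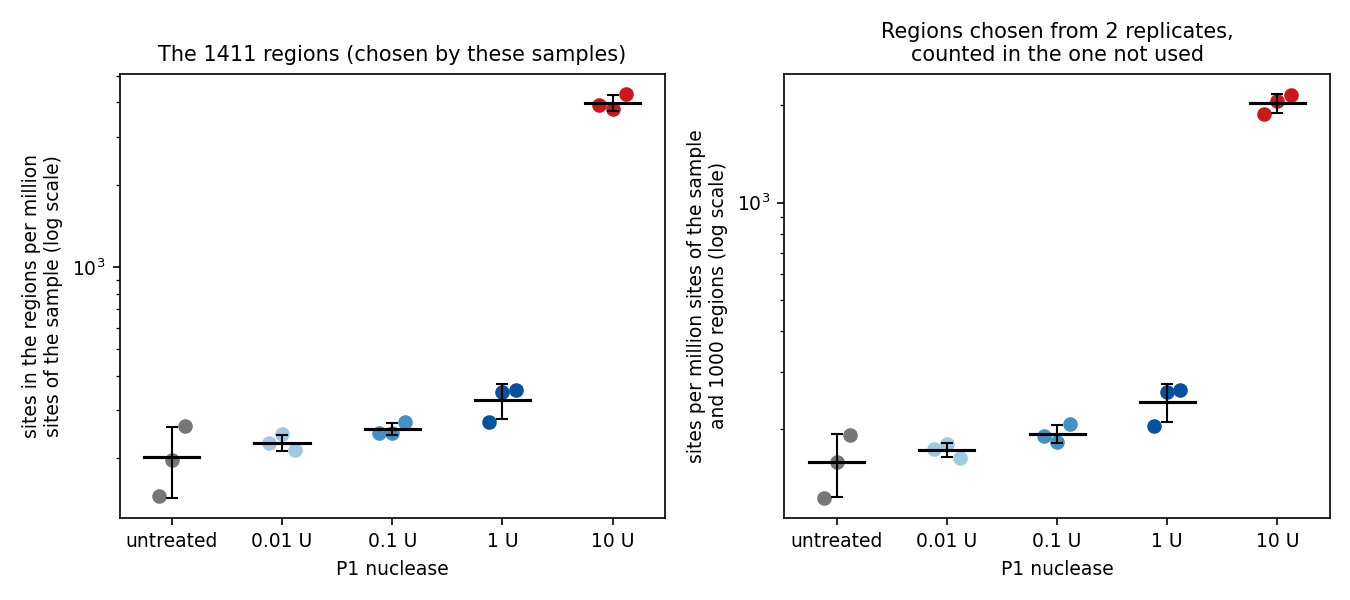
Points give 1 sample each, lines the mean and bars the SD of 3 replicates, on log axes. Left, sites per 1000000 sites of the sample in the 1411 regions, between 146 and 355 below 10 U and between 3774 and 4304 at 10 U. Right, sites per 1000000 sites of the sample and 1000 regions in the replicate left out of the choice, 122 to 263 against 1875 to 2153.

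Below 10 U the left-out densities differed less. Relative to untreated nuclei they were 1.11 times as high at 0.01 U, 1.25 at 0.1 U and 1.55 at 1 U, and the step from 1 U to 10 U was 8.42-fold (7.96 to 9.18). The spread over untreated, 0.01, 0.1 and 1 U passed the test (exact permutation test, two-sided, p = 0.0191, adjusted p = 0.0255), with the 1 U sample above the untreated one in 3 of 3 replicates. That call was lost without replicate 1 (1.50-fold, exact permutation p = 0.125) and without replicate 2 (1.51-fold, exact permutation p = 0.292). It was kept without replicate 3 (1.65-fold, exact permutation p = 0.0417). With a replicate left out the test has far fewer arrangements, so a lost call need not mean that the result rests on that replicate.

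Density rose more in regions that followed a T run than in those that did not. Of the regions chosen from 2 replicates, 1793, 1470 and 1678 had a run of 10 or more T before the first site, and in the replicate left out their density was 18.2 times that of untreated nuclei at 10 U (14.5 to 24.6). In the 576, 443 and 556 without such a run it was 5.95 times (5.75 to 6.36). The ratio of the former to the latter was 0.331, 0.511 and 0.558 in untreated nuclei, 0.536, 0.637 and 0.645 at 1 U, and 1.41, 1.36 and 1.41 at 10 U. It rose 3.06-fold from untreated to 10 U. In a test added after the data were seen, its spread over the 5 amounts exceeded that of the replicates (exact permutation test, two-sided, p = 0.00222, adjusted p = 0.00356). Without replicate 2 the ratio rose 3.28-fold with p = 0.0833 in the exact permutation test.

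The strand was likewise shared by samples outside the choice. In the left-out 10 U samples 98.0%, 97.9% and 98.2% of sites lay on the strand that the other replicates gave. In the left-out untreated samples the share was 79.9%, 84.8% and 86.4%, and at 1 U it was 85.2%, 91.0% and 90.2%. The 10 U samples lay above all others, and the difference from untreated was 14.3 percentage points (11.7 to 18.1; exact permutation test, two-sided, p = 0.00222, adjusted p = 0.00356). This call was lost without replicate 2 (14.9 points, exact permutation p = 0.0833) or 3 (15.6 points, exact permutation p = 0.05).

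The bases at the termini inside the regions were unlike those elsewhere. At 10 U outside the regions, the last base of the broken strand was G or C at 77.3% ± 0.399 of sites and the base next to it at 81.9% ± 0.242 (SD, n = 3), while the base just beyond the break was G or C at 33.9% ± 0.861. Inside the regions these shares were 50.8% ± 0.869, 49.7% ± 0.131 and 48.0% ± 1.35, close to the regions' own composition. In untreated nuclei the last base was G or C at 59.3% ± 2.83 inside and 77.3% ± 1.78 elsewhere. Taking the last base and the one beyond the break together, the inside share minus that elsewhere lay between -7.32 and -5.53 percentage points in untreated nuclei and between -6.43 and -5.95 points at 10 U. These ranges overlapped, and the difference moved by 0.381 points between them, higher at 10 U in 2 of 3 replicates. Its lowest values were those of 0.1 U, between -9.14 and -8.88 points. The spread over the 5 amounts passed the test (exact permutation test, two-sided, p = 0.0244, adjusted p = 0.0279), and did not without replicate 1, 2 or 3 (exact permutation p = 0.225, 0.05 and 0.1). The 10 U sites inside are those that chose the regions, and no left-out version was run, so this test is not independent of the choice. With each terminus counted in place of each site the difference at 10 U moved by -0.669 points from untreated, so its direction rests on the counting. For the last base and the one before it, a pair chosen after the values were seen, the same difference was between -22.3 and -17.4 points in untreated nuclei. At 10 U it was between -29.7 and -29.1 points, a move of -9.59 points. Its spread over the 5 amounts gave p = 0.00264 (exact permutation test, two-sided), with the same dependence on the choice of regions.

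**Figure D5:**
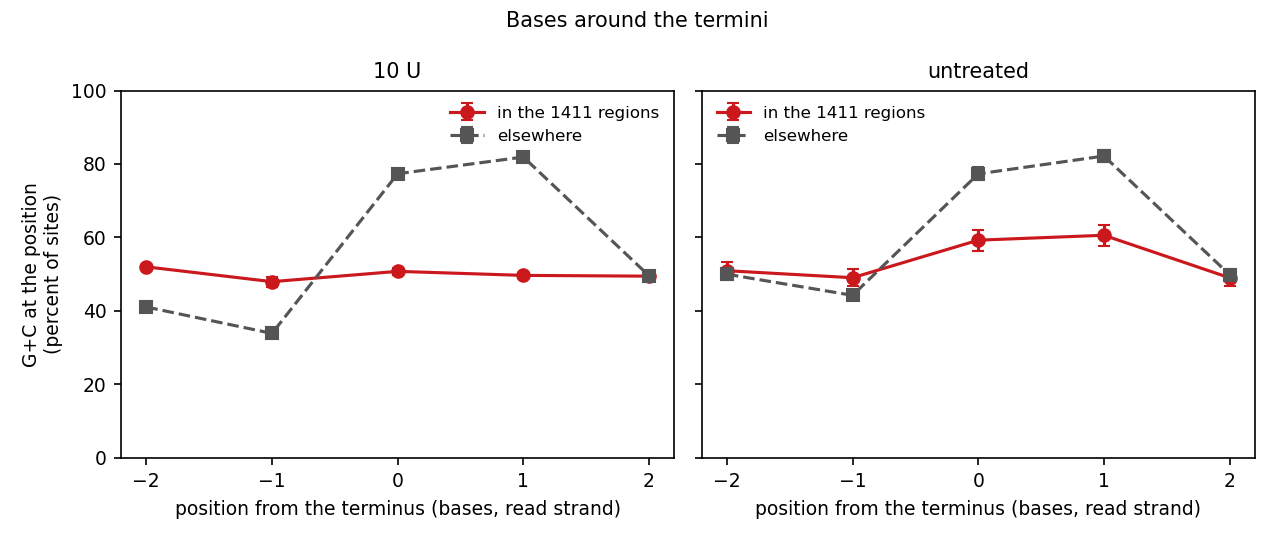
Points give the percentage of sites with G or C at positions along the copied strand from the terminus (0 is the last base of the broken strand, 1 the base before it, -1 the base beyond the break), as the mean and SD of 3 replicates. Inside the 1411 regions at 10 U the line is flat near 50%, and elsewhere it peaks at 81.9%.

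The number of termini on each site was also compared, as a description. At 10 U each site held 1.15, 1.18 and 1.14 termini inside the regions and 1.13, 1.18 and 1.12 elsewhere. In untreated nuclei the values were 1.04, 1.05 and 1.05 inside and 1.09, 1.11 and 1.10 elsewhere. The ratio of inside to elsewhere was 1.06 times higher at 10 U than untreated, in 3 of 3 replicates. The regions were chosen for dense sites at 10 U, where termini coincide more often, so this ratio is not independent of the choice.

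Of the 1411 regions 1031 (73.1%) lay in genes of GENCODE 44 and 917 (65.0%) in introns clear of any exon. Introns cover 56.8% of the sequenced genome and held 56.2% of the regions of a single list. Exons were touched by 114 regions (8.08%, beside 13.1% of regions of a single list and 5.49% of the genome). Coding sequence was touched by 22 (1.56%, beside 4.87% and 1.26%) and UTRs by 51 (3.61%, beside 4.79% and 2.12%). Within 1 kb of a protein-coding gene start lay 14 regions (0.992%), against 3.32% of regions of a single list and 1.30% of the genome. Within genes on 1 strand, the broken strand was the template strand at 53.4%, 53.1% and 53.9% of sites at 10 U and at 50.9%, 56.0% and 49.2% in untreated nuclei. The spread over the amounts did not exceed that of the replicates (exact permutation test, two-sided, p = 0.469, adjusted p = 0.469). This test used the sites that chose the regions, with no left-out version.

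Ordered by the number of sites in their lowest 10 U replicate, the first region lay between genes, 256 bases from DPH7, which encodes an enzyme of diphthamide synthesis. It held 32, 35 and 38 sites at 10 U and 1 to 3 in each other sample, all 10 U sites being on 1 strand 15 bases or more after a run of 13 T. An intron of UBE2L3, a ubiquitin-conjugating enzyme, held the next, with 26, 37 and 24 sites at 10 U and 2, 1 and 7 in untreated nuclei. It was followed by an intron of CLTCL1, a clathrin heavy chain, with 25, 23 and 22 sites at 10 U and none in untreated nuclei. In these cases the 10 U samples did not overlap the others, which the choice of regions favours.

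The other 7 of the first 10 regions in this order had between 15 and 27 sites in each 10 U replicate. They lay in introns of PRAMENP, RALA, MED27, CLSTN2, PLEKHA7 and GMDS-DT, and 9863 bases from AL592284.1. The regions of UBE2L3, CLTCL1 and PRAMENP were all on chromosome 22, and UBE2L3 is counted below among genes of amplified segments. The order used site numbers that were not adjusted for copy number, whose part was not tested. RALA is a small GTPase, MED27 a subunit of the Mediator complex that links transcription factors to RNA polymerase II, and PLEKHA7 a protein of adherens junctions. Only that of PRAMENP lacked a run of 10 T, its longest holding 7. Its 24-base words occurred 6981 times in the genome at the median, and those of the region by AL592284.1 28 times. Those of RALA, MED27, CLSTN2, PLEKHA7 and GMDS-DT occurred once. The regions by DPH7, UBE2L3 and CLTCL1 had medians of 77, 4 and 535.

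Near gene starts the first region in the same order was that of ING3, a subunit of a histone acetyltransferase complex, at chr7:120590801-120590920. It had 9, 18 and 17 sites at 10 U and 4, 6 and 4 in untreated nuclei, the most untreated sites in all among the regions named here, and no T run longer than 2 bases before it. The region by MEST, an imprinted gene, had 8, 8 and 12 sites at 10 U against 0, 0 and 2 untreated, after a run of 14 T. Those by IL16, a cytokine precursor, MUC12, a membrane mucin, RAB32, a small GTPase, OR52A5, an olfactory receptor, AFF4, a scaffold of the super elongation complex, HS6ST2, a heparan sulfate sulfotransferase, GNG11, a G protein subunit, and SPATS2L had between 4 and 11 sites in each 10 U replicate. With 7, 11 and 9 sites, the IL16 region followed no run of more than 3 T. In the MUC12, RAB32, OR52A5, AFF4, HS6ST2, GNG11 and SPATS2L regions a run of 11 to 18 T came first. The 24-base words of the IL16 region occurred 38 times in the genome at the median, those of MUC12 2 times and those of the other regions near gene starts 1 time.

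On exons, the first region by its lowest replicate was in coding sequence of RAP1A, a Ras-related GTPase, at chr1:112240061-112240140. It had 13, 13 and 16 sites at 10 U and none in untreated nuclei, on the strand after the run of 14 T printed above. Coding sequence was touched too in ZNF862, a zinc finger protein (12, 13 and 20 sites at 10 U), in DAGLB, a lipase that makes an endocannabinoid (10, 17 and 10), and in CYBB, the catalytic subunit of the phagocyte NADPH oxidase (14, 13 and 10). The region in DAGLB touched an exon of KDELR2 as well. Regions on UTRs of CALU, a calcium-binding protein of the secretory pathway, and DHCR7, the last enzyme of cholesterol synthesis, had 12, 17 and 20 and 10, 11 and 13 sites. Other exons touched were of EFTUD2, a spliceosome GTPase, CDK13, a kinase of RNA polymerase II, and ITGAV, an integrin subunit, with 10 to 26 sites in each replicate. ITGAV and DHCR7 were the regions of these without a run of 10 T, their longest holding 9 and 7.

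Gene groups of known chromatin or copy number state in K562 held 0 to 6 of the regions each, which is too few to rank them. None of 25 erythroid genes, which K562 expresses in part, and none of 52 replication-dependent histone genes held one, over 1.08 and 0.169 Mb, while protein-coding genes together held 0.657 per Mb and the genome 0.498. Among 74 genes of cytosolic ribosomal proteins RPS24 held 1, or 1.36 per Mb. Of 25 very long genes of common fragile sites, where replication tends to stall, 5 held 6 regions, or 0.171 per Mb, in IMMP2L, CNTNAP2, MAGI2, DPYD and DLG2. Of 20 genes of the amplified BCR, ABL1 and NUP214 segments, UBE2L3 and FIBCD1 held 1 each, or 2.01 per Mb. Over all 20098 protein-coding genes 835 held a region (4.15%), at most 3 in a gene, as in EXOC4, LRMDA, PARD3, RARB, RORA and SLC39A11.

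Repeated sequence was more common in the regions than in those of a single list. The median number of genome copies of a region's 24-base words was 1 in 57.7% of the regions and 10 or more in 30.7%. In regions of a single list at least 30 bp wide the shares were 78.8% and 12.7%. Among the regions after a T run 33.2% had 10 or more copies, and among those without one 18.6%. Copies affect which reads map to a single place, and their part in the counts was not tested. The surroundings, 50 kb on each side, held 1.23 times the genome's mean density of untreated sites at the median (quartiles 0.894 and 1.70) and 1.26 times that of 10 U sites, below the 1.55 and 1.57 around regions of a single list. Chromosome 1 had 189 regions (13.4% of them, with 10.2% of 10 U sites) and chromosome 6 had 117 (8.29% and 6.19%), while chromosome X had 15 (1.06% and 2.85%) and chromosome 13 had 14 (0.992% and 2.05%). K562 carries gains and losses of chromosome segments, whose part in these numbers was not tested.

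At the edge of the rule, the 3 regions with the fewest sites in their lowest replicate had 4, 4 and 3 sites in replicates 1, 2 and 3 at chr16:72351431-72351490, 4, 3 and 4 at chr22:20301101-20301170, and 4, 4 and 3 at chr5:83438681-83438730. Just outside, regions of 2 lists reached 14 sites in the replicate without a call: 13, 14 and 18 at chr5:1501241-1501430, called in replicates 1 and 3, then 6, 12 and 11 at chr6:158056011-158056150 and 11, 12 and 9 at chr11:87062981-87063090. Of the 2117 regions of 2 lists that touched no lower list, 767 had 3 or more sites in the replicate without a call and 280 had none.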

How the data were processed

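Unique termini were read from the deposited site files, which hold counts of 3′-OH termini per genome position and strand, made by the authors from read pairs that began with 9 to 11 G and 11 to 13 T, aligned to GRCh37 with BWA 0.7.12. Termini with over 40% T in the 20 bases before them had been removed. Regions (deposited lists, coordinates only) had been called by the authors with SICER 1.1, window 10 bp, gap 30 bp, each treated sample against the untreated one of its number. The authors' counts, folds, p-values and FDR in those lists were not used, nor were the clustered and mitochondrial files. Overlaps and counts were computed in Python 3.11.15 with numpy 2.4.6, pandas 2.3.3, pysam 0.24.0 and numba 0.67.0, and genes came from GENCODE 44 on GRCh37. Depth ranged from 2245773 to 4225443 termini a sample. Reads carried no molecular identifiers, so termini are not independent molecules. The replicates were separate biological replicates of 1 line, and p-values measure the spread between them. Tests were exact permutations of values within replicate numbers over the amounts (14400 arrangements for 5 amounts, 576 for 4, smallest p 6.94e-05 and 0.00174). Leaving out a replicate leaves fewer arrangements and raises the smallest p. The block by number follows the authors' pairing, though same-numbered samples did not deviate together in 2858 bins of 1 Mb (mean r 0.00756 over 30 pairs). Of the 8 tests adjusted together, that of termini per site is not used, since the choice of regions bears on it. The tests of G+C share and template share also used the regions chosen by all replicates, so they are not independent of the choice. The tests of the left-out strand share, of regions with over without a T run and of sites after T runs were added after the data were seen. The members, gene lists and tests were chosen with earlier results of these data known. Named were the 10 members with the highest lowest-replicate site number, then up to 10 protein-coding genes with a member within 1 kb of a start, up to 10 with one on an exon, up to 5 per gene list, and members at the edge of the rule. The scripts were tested on simulated data. Sequences of other named regions are not reported here.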

Additional observations from a re-analysis of the deposited data

Results flagged for a closer look

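Sites after T runs were also in excess where no region was called in any list. Among sites 21 to 100 bases after runs of 10 or more T and outside all called regions, the number on the run's strand was 6.19 times that on the opposite strand at 10 U (5.90 to 6.68 over 3 replicates), and 3.19 times in untreated nuclei (2.99 to 3.55). The samples of 0.01, 0.1 and 1 U had ratios between 3.11 and 3.93. The ratio rose 1.95-fold from untreated to 10 U, in 3 of 3 replicates. In a test added after the data were seen, the spread over the amounts exceeded that of the replicates (exact permutation test, two-sided, p = 0.000764, adjusted p = 0.00204 over 8 tests). By run length, the 10 U ratio was 2.16 ± 0.102 at 10 T, 5.57 ± 0.435 at 12 T, 12.9 ± 1.95 at 14 T and 8.59 ± 0.788 at 20 T. The untreated ratio was 4.14 ± 0.388 at 14 T and 3.82 ± 0.241 at 20 T (SD, n = 3). Over all run lengths together both strands moved: the sites on the run's strand made up 1.83%, 2.30% and 2.64% of all sites in untreated nuclei and 2.84%, 2.86% and 2.93% at 10 U, while those on the opposite strand made up 0.606%, 0.768% and 0.744% and then 0.481%, 0.478% and 0.438%. On the run's strand the rise was not seen after long runs. Scaled to the sites of the sample and the number of runs, its level at 14 T was 2354 ± 390 untreated and 4435 ± 202 at 10 U. At 20 T it was 2864 ± 513 and 2840 ± 59.3, and at 25 to 29 T 3679 ± 868 and 3152 ± 276. The cause was not tested.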

How the results depend on the processing

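The number of regions was 853 when 10 U regions needed 5 or more sites of their own sample, and between 1913 and 2369 when a replicate was left out, fewer lists then having to share a region. It was between 1318 and 1430 under the other 4 ways of merging and filtering. The difference in G+C share at the break between inside and elsewhere, 0.381 points higher at 10 U than untreated, turned to -0.669 points with each terminus counted and to -9.59 points for the last base and the one before it, so its direction depends on the bases and the counting; values without 1 replicate lay between 0.0289 and 0.987, none passing the test, and the cause was not tested. Leaving out a replicate gave held-out density factors of 12.1 to 14.1, 1.50 to 1.65 up to 1 U, strand shares 12.5 to 15.6 points higher, and a ratio of regions with to without a T run 2.60 to 3.37 times as high, each losing its call without replicate 2 and some without replicate 1 or 3, as given above. Without the replicate block, p for the held-out density at 10 U was 0.000124, that up to 1 U 0.0113, that of the strand share 0.00195, that of the G+C share 0.00809, that of the ratio with to without a T run 0.000965 and that of the template share 0.437, and no call changed. The held-out density factor was 17.03 without regions holding an untreated site in the choosing replicates and 22.4 with sites of at least 2 termini. Over all results, 41 alternative values kept direction and side of the threshold, 9 lost the call, 3 counts moved and 3 values turned, the last being the template share, which did not pass the test in any setting and lay between -0.223 and 3.58 points without 1 replicate. Few sites per region and sample (a median of 5 in the lowest 10 U replicate) limit what can be said of any single region, and a fall in DNA of other parts of the genome at 10 U and a rise in the regions cannot be told apart in shares of sites.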
